A study of Mus musculus with 8 samples.

Results

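The simple-epithelial keratins Krt7, Krt8, Krt18 and Krt19, the surface adhesion molecule Epcam, the splicing regulators Esrp1 and Esrp2, and the transcription factors Grhl2 and Ovol1 were examined in mouse ovarian surface epithelial cells with and without activated Notch3. These 9 genes were selected by symbol from the 23284 symbols listed in each deposited count table, and all 9 were found. ID8 IP2 is a subline of the mouse ovarian surface epithelial tumor line ID8 that was passaged in C57BL/6 mice, and every line used here also carried a lentiviral luciferase and mCherry reporter. Notch3IC lines were infected with a pCCL lentivirus that expresses the intracellular domain of Notch3 with an HA tag and, behind an IRES, GFP. Control lines received the empty pCCL vector. Sets 1 to 4 are matched Notch3IC and Control pairs, each from its own infection, and polyadenylated RNA of the 8 lines was sequenced as 1 library per line. The intracellular domain is active without ligand, so the comparison is one of constitutive signaling, and tests made after the experiments, by the study's methods, pointed to mycoplasma in the ID8 IP2 lines. Between 19013578 and 28208072 reads per library were counted on genes in Control (median 24255880) and between 15524262 and 27107061 in Notch3IC (median 24162245.5).

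Keratins are intermediate filament proteins that assemble only as pairs of a type I chain (here Krt18 and Krt19) with a type II chain (here Krt7 and Krt8), and simple epithelia, mesothelium and the ovarian surface are known for the Krt8 and Krt18 pair with Krt7 and Krt19. Esrp1 and Esrp2 bind pre-mRNA and favor epithelial splice forms of genes such as Fgfr2 and Cd44. Grhl2 and Ovol1 are transcription factors that sustain epithelial gene programs, and Epcam is a homophilic adhesion glycoprotein used as a carcinoma marker. Repressors of the Zeb and Snail families bind E-boxes with the letters CAGGTG or CACCTG in the promoters of such genes.

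Promoter sequence was taken for the members listed in the RefSeq promoter table used here (build GRCm38.p6), which are Krt7, Krt8, Krt18 and Epcam, 4 of 9. It is shown because Zeb and Snail repressors, which are among the genes described further on, bind these letters. Capitals mark CAGGTG read on either strand (CACCTG is its reverse complement) and, in Krt8, GTGGGAA, a core sequence of the Notch partner Rbpj. The Krt18 sequence is chr15:102027966-102028179 (plus strand) and the Epcam sequence chr17:87635729-87635978 (plus strand), and neither holds a base that GENCODE annotates as exon of its gene. The matches of Krt7 and Krt8 lie inside annotated exons, that of Krt7 in an exon of a transcript that starts further upstream, so only 30 bases around them are given, chr15:101412347-101412376 (plus strand) for Krt7 and chr15:102004448-102004477 (minus strand) for Krt8.
Krt7: ccgccctgtcccCACCTGtgtgcgctcagc
Krt8: GTGGGAAcagctctctgctgccctCACCTG
Krt18: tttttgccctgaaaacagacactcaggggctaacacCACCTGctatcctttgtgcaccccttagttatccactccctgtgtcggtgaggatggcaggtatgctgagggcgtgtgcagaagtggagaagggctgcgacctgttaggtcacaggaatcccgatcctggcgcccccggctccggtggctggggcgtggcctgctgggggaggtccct
Epcam: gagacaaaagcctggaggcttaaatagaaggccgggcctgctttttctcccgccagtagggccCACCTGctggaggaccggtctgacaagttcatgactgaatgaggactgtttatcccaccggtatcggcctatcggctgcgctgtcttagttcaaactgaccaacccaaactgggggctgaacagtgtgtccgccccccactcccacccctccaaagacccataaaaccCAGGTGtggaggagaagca
CAGGTG or its reverse complement occurred in the 250 bases before the start of all 4 genes, once each in Krt7, Krt8 and Krt18 and 2 times in Epcam, and in 17.2% of the 32851 promoters of the table. The matches began 44 bases before the start in Krt7, 111 in Krt8, 214 in Krt18, and 187 and 19 in Epcam. GTGGGAA or TTCCCAC occurred in Krt8 alone, 135 bases before the start, and in 5.42% of all promoters. The Grhl motif AACCGGTT was found in none of the 4 windows and in 0.116% of all promoters. These matches describe the letters of the windows, and binding was not measured.

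In GRCm38, 4 of the 9 genes lie on chromosome 15. Krt8 (chr15:101996698-102004482, minus strand) and Krt18 (chr15:102028180-102032027, plus strand) are neighbors with 23697 bases between them, Krt7 is at chr15:101411043-101430313 and Grhl2 at chr15:37233036-37363569. Krt19 is at chr11:100140810-100148665, Epcam at chr17:87635979-87651129, Esrp1 at chr4:11331933-11386783, Esrp2 at chr8:106130319-106136974 and Ovol1 at chr19:5549136-5560646. Part of the exon sequence of 4 members overlaps a gene on the opposite strand, 5.16% in Krt8 (with Gm36026), 6.19% in Esrp2 (with Nfatc3), 2.32% in Grhl2 and 25.8% in Ovol1, and reads there cannot be assigned to a strand because strandedness is not given in the sources used here. Krt8 has a processed pseudogene, Krt8-ps, that matches it at 98.6% over 941 bases, and Krt18 has one, Gm5200, at 90.5% over 1267 bases, so part of their counts could be split with these copies. Krt19, Epcam and Esrp1 had no other transcript that matched at 90% or more over 100 bases.

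Levels of the members differed by several orders of magnitude. As CPM (counts scaled to the library size) per kilobase of exon (mean ± SD, n = 4 libraries per group), Krt19 stood at 121 ± 77.5 in Control and 27.9 ± 15.4 in Notch3IC. Krt8 stood at 72.7 ± 13.7 and 43.5 ± 11.8 on the same scale, and Krt18 at 53.9 ± 22.8 and 39.8 ± 21.8. The ranges of the 3 keratins overlapped in both groups, so the group values alone do not set their order. Within single libraries Krt8 stood above Krt18 in every Control library and in Notch3IC of Sets 1 and 2. Krt19 stood above Krt8 in Control of Sets 2, 3 and 4 and in Notch3IC of Set 2, and below it elsewhere. Esrp2 followed at 11.3 ± 1.64 in Control and 5.44 ± 4.00 in Notch3IC, and its Control range (9.60 to 13.05) lay below that of every one of these keratins, whereas its Notch3IC range (2.84 to 11.4) reached into that of Krt19 (7.24 to 44.3). The remaining 5 members were between 0 and 0.461 in all 8 libraries. In these lines Krt7, Epcam, Esrp1, Grhl2 and Ovol1, which are textbook epithelial genes, were thus near the limit of counting, and the label of an epithelial group was carried by Krt8, Krt18, Krt19 and Esrp2.

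**Figure D1:**
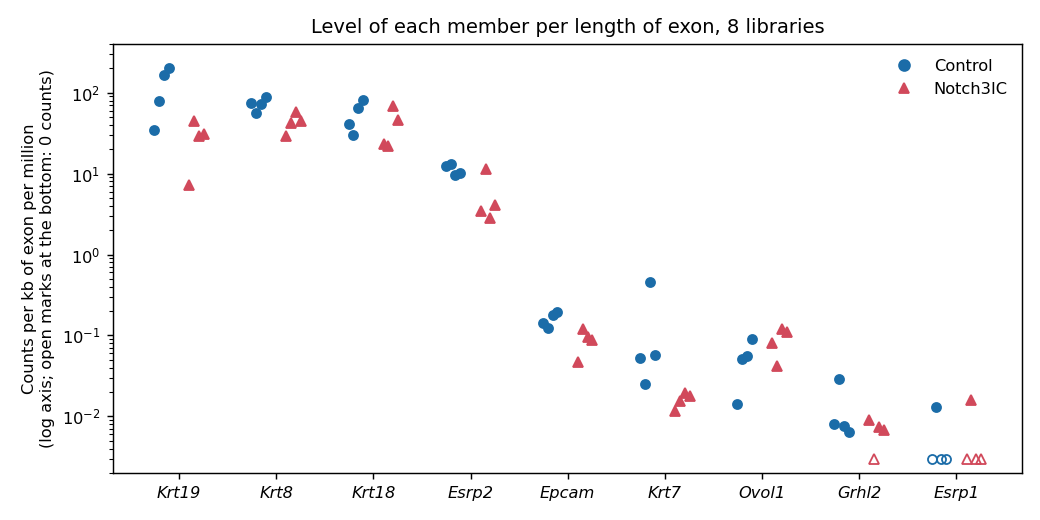
Level of each of the 9 genes in CPM per kilobase of exon (log axis), with 1 point per library, circles for Control and triangles for Notch3IC; open marks at the bottom stand for 0 counts. Krt19, Krt8, Krt18 and Esrp2 lie at or above 2.84 in every library and the other 5 genes at or below 0.461.

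Notch3IC against Control was fitted in edgeR with TMM scaling and condition as the only term. Its quasi-likelihood test covered the 12430 genes with enough counts for edgeR's filter. The study's thresholds were kept, so that a call needs a log2 fold change of 1 or more in size together with an adjusted p (Benjamini-Hochberg, over every gene tested) under 0.1. Of the 9 members, 4 passed the filter (Krt8, Krt18, Krt19 and Esrp2), and 0 were called higher and 0 lower by this fit, against 3.4% of all genes tested called higher and 0.74% called lower (4.14% in either direction). All 4 had log2 fold changes below 0, with a median of -0.90 beside -0.01 over all genes tested. Before adjustment 2289 of the genes tested had p under 0.05, Krt8, Krt19 and Esrp2 among them. Over all genes, 423 were called higher and 92 lower. With 1 library of Set 3 or Set 4 left out, these counts fell to between 75 and 201 and between 8 and 29. Losing a call in such an omission was thus shared by most called genes. The median within-set log2 ratio of the 4 genes, given for Sets 1 to 4 in turn, was -1.58, -0.43, -1.03 and -1.15. Krt8, Krt19 and Esrp2 were lower in the Notch3IC library of all 4 sets, a pattern of 19.4% of all genes tested. In edgeR's fit with a block for the set, 2 of the 4, Krt19 and Esrp2, were called lower and 0 higher, against 2.53% of all genes called lower and 5.19% called higher in that fit, and both stayed called at an adjusted p under 0.05, as did 1.9% of all genes. DESeq2 called 3 members lower, these 2 and Krt7, against 1.38% of the genes it tested, and 0 higher against 5.07%. In bulk RNA, fewer cells that express a gene and less RNA per cell cannot be told apart.

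Krt19, the type I keratin without a tail domain, had 1272, 2938, 6164 and 7453 normalized counts in Control (always listed from Set 1 to Set 4) and 266, 1629, 1082 and 1134 in Notch3IC. It was lower in the Notch3IC library of all 4 sets, but the groups overlapped because the Control library of Set 1 lay below the Notch3IC library of Set 2. The log2 ratio within a set was -2.25, -0.85, -2.51 and -2.72. Krt19 had a log2 fold change of -2.12 (standard error 0.65), and its adjusted p of 0.124 in edgeR's quasi-likelihood test with condition alone missed the threshold. With the set as a block it was -2.10 (standard error 0.33) with an adjusted p of 0.0288 in edgeR's test, and with DESeq2 -2.14 with an adjusted p of 0.00519. Leaving out the Control library of Set 1 (adjusted p = 0.0662), the Notch3IC library of Set 2 (0.0806) or the whole of Set 1 (0.0653) from edgeR's fit with condition alone put it past the threshold. The blocked call in turn was lost without Set 1, Set 3 or Set 4 (adjusted p = 0.126, 0.142 and 0.143 in edgeR's test) and stood without Set 2 (0.000114).

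Krt8, the main type II keratin of simple epithelia, had 3395, 2544, 3272 and 4067 normalized counts in Control and 1343, 1906, 2659 and 2049 in Notch3IC. It was lower in all 4 sets, with overlap between the groups through the Control library of Set 2 and the Notch3IC library of Set 3. The difference in Krt8 was -0.74 on the log2 scale (standard error 0.21, adjusted p = 0.109 in edgeR's quasi-likelihood test). The block gave -0.76 (standard error 0.19, adjusted p = 0.0543 in edgeR's test) and DESeq2 -0.76 (adjusted p = 0.0212), both past the p threshold but under the fold limit.

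Krt18, the type I partner of Krt8, had 1361, 1004, 2169 and 2694 normalized counts in Control and 782, 738, 2286 and 1538 in Notch3IC. It was lower in Sets 1, 2 and 4 and slightly higher in Set 3, and the groups overlapped over most of their range. The difference in Krt18 was -0.43 on the log2 scale (standard error 0.43, adjusted p = 0.660 in edgeR's quasi-likelihood test) and with the block -0.49 (standard error 0.16, adjusted p = 0.0907 in edgeR's test), under the fold limit. Between the Control libraries alone the value of Krt18 spanned 1004 to 2694. Omission of 1 library moved its log2 fold change from -0.82 (Notch3IC of Set 3 omitted) to -0.18 (Control of Set 4 omitted).

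Esrp2, the splicing regulator of the pair that these lines express, had 1012, 1077, 792 and 843 normalized counts in Control and 284, 941, 234 and 338 in Notch3IC. Notch3IC libraries of Sets 1, 3 and 4 were far below every Control library, and that of Set 2 lay within the Control range. The log2 ratio within a set was -1.83, -0.19, -1.75 and -1.32. The difference in Esrp2 was -1.06 on the log2 scale (standard error 0.42, adjusted p = 0.221 in edgeR's quasi-likelihood test), and with the block -1.27 (standard error 0.29, adjusted p = 0.0473 in edgeR's test). DESeq2 gave -1.07 with an adjusted p of 0.0860. Without the Notch3IC library of Set 2 the log2 fold change with condition alone was -1.71 (adjusted p = 0.00168 in edgeR's test). The blocked call was lost without Set 1, 3 or 4 (adjusted p = 0.159, 0.203 and 0.214 in edgeR's test) and stood without Set 2 (0.000664). Notch3 itself, the gene of the insert, had 4321, 467, 9220 and 5842 normalized counts in the Notch3IC libraries and 38.7 to 70.8 in Control, so the Set 2 Notch3IC library had the least Notch3, and the part of this difference in the values of Esrp2 and Krt19 was not tested.

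**Figure D2:**
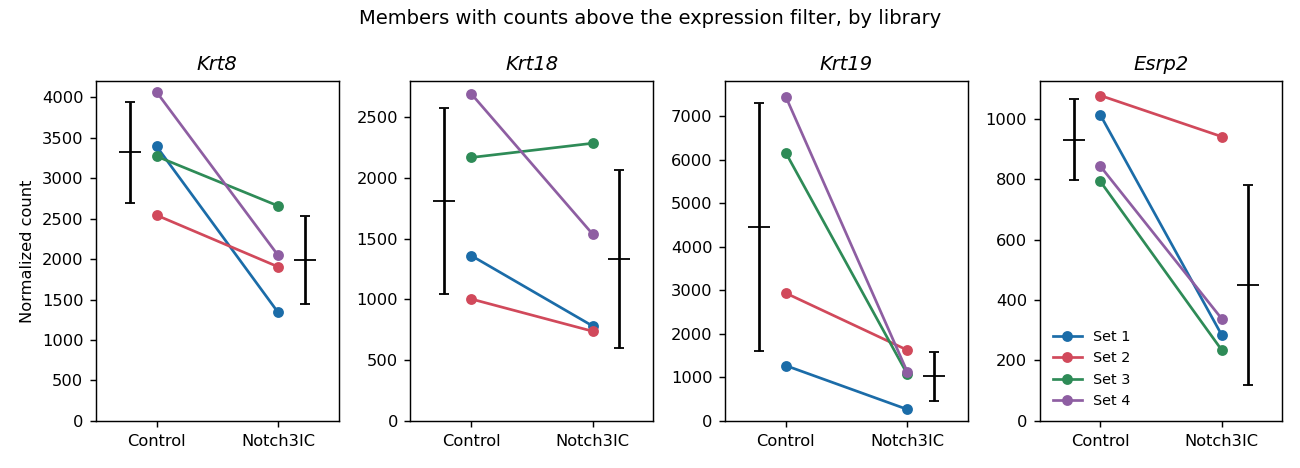
Normalized counts of Krt8, Krt18, Krt19 and Esrp2 in each library, with a line joining the Control and Notch3IC library of each matched set and, beside the points, the group mean with its SD (n = 4). Krt8, Krt19 and Esrp2 are lower in Notch3IC in every set, as are 19.4% of all genes tested, and Krt18 in 3 of 4. Esrp2 in Set 2 is at 1077 and 941.

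Relations among the expressed keratins also differed between libraries. Krt19 per unit length was 0.852, 2.67, 2.59 and 2.52 times Krt18 in Control and 0.310, 2.01, 0.432 and 0.672 times Krt18 in Notch3IC, a lower ratio in the Notch3IC library of all 4 sets. The type I members summed (Krt18 and Krt19) over the type II members summed (Krt7 and Krt8) gave 1.01, 1.97, 3.22 and 3.18 in Control and 1.04, 1.59, 1.68 and 1.71 in Notch3IC. The second ratio was lower in Notch3IC in Sets 2, 3 and 4 and nearly level in Set 1. Krt18 over its partner Krt8 went the other way in 3 sets, at 0.546, 0.538, 0.903 and 0.903 in Control and 0.793, 0.528, 1.17 and 1.02 in Notch3IC, higher in Notch3IC in Sets 1, 3 and 4 and slightly lower in Set 2. All are ratios of levels per length, given without a test.

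Across the 8 libraries, which share the Set structure and the Notch3IC contrast, the Pearson correlation of log2 CPM was 0.77 between Krt8 and Krt18, 0.82 between Krt8 and Krt19 and 0.59 between Krt18 and Krt19. Esrp2 followed Krt19 at 0.65, Krt8 at 0.51 and Krt18 at -0.11. For each member with a median of at least 50 counts, the genes most like it by this measure were sought among all genes tested. They were Pttg1ip, Nxf3 and Zfp3 for Krt19 (0.99, 0.99 and 0.98) and 1810044D09Rik, Rpp21 and H2-K1 for Krt8 (0.99, 0.97 and 0.96). For Krt18 they were Chchd8, Chchd5 and Alkbh2 (0.98, 0.98 and 0.97), and for Esrp2 1190002N15Rik, Ddhd2 and Slc25a10 (0.99, 0.99 and 0.99). None of the 12 is a keratin or another member.

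The 5 members under the expression filter had few reads. Krt7, a type II keratin of ducts and mesothelium, had 5, 2, 46 and 7 counts in Control and 1, 1, 2 and 2 in Notch3IC. After normalization every Notch3IC library (1.12 to 1.84) was below every Control library (2.39 to 44.0), as in 3.75% of the genes tested, but the Control library of Set 3 supplied most of the counts. Without a filter the log2 fold change of Krt7 was -3.11 (adjusted p = 0.151 in edgeR's quasi-likelihood test) and with DESeq2 -3.23 (adjusted p = 0.0463). The Krt7 transcripts also share a stretch of at least 90% identity with 94 other genes, 0 of them at 95% or more. Epcam had 7, 5, 9 and 12 counts in Control and 2, 4, 5 and 5 in Notch3IC, again without overlap after normalization. The log2 fold change of Epcam was -0.88 without a filter (adjusted p = 0.375 in edgeR's test) and -0.93 with DESeq2 (adjusted p = 0.448), past the threshold in neither. In Set 2 Epcam had 5.97 normalized counts in Control and 5.86 in Notch3IC.

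Esrp1 had 1 count in the Control library of Set 2, 1 in the Notch3IC library of Set 2 and 0 in the other 6, where a count of 0 allows up to 3 reads. Esrp2 was therefore the Esrp transcript of these lines at this depth. Grhl2 had 1, 3, 1 and 1 counts in Control and 1, 0, 1 and 1 in Notch3IC. Ovol1 had 1, 3, 4 and 8 counts in Control and 5, 2, 9 and 9 in Notch3IC, and its log2 fold change was 0.72 (adjusted p = 0.597 in edgeR's quasi-likelihood test without a filter). No difference in Esrp1, Grhl2 or Ovol1 was detectable at this depth.

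Other keratins were sparse as well, with exceptions in both directions. Outside the 4 keratin members, 48 keratin symbols were listed, of which 21 had 0 counts in all libraries, 14 more had at most 3 counts in every library and 7 reached 50 counts in at least 1 library. Of the 6 that were tested, 1 was called higher and 0 lower, and with the block 1 higher and 1 lower. Krt79, a type II keratin of the sebaceous gland duct, had 0, 1, 0 and 0 counts in Control and 114, 7, 271 and 164 in Notch3IC, higher in all 4 sets (adjusted p = 0.0190 in edgeR's quasi-likelihood test, 0.230 without Set 3 and 0.249 without Set 4). Krt1, a type II keratin of the upper epidermis, had 0 counts in all 4 Control libraries and 15, 3, 31 and 104 in Notch3IC, at least 11.7-fold higher against a floor of 3 counts per Control library (at least 5.61-fold when its highest library, Notch3IC of Set 4, is left out), and was not tested. Krt14, a type I keratin of basal epithelia and the keratin with the most counts outside the members, had 1814, 2158, 1623 and 2096 normalized counts in Control and 766, 1801, 595 and 449 in Notch3IC. The log2 fold change of Krt14 was -1.10 (adjusted p = 0.183 in edgeR's quasi-likelihood test), and with the block -1.29 (adjusted p = 0.0511 in edgeR's test), a call. DESeq2 also called it, at -1.11 (adjusted p = 0.0526). As with Esrp2, its Notch3IC library of Set 2 lay inside the Control range, and with that library omitted Krt14 was at -1.68 (adjusted p = 0.00309 in edgeR's test with condition alone). Krt10, Krt80 and Krt9, with log2 fold changes of -0.29, -0.89 and -0.93, were not called (adjusted p = 0.508, 0.541 and 0.521 in edgeR's test). Omission of 1 library moved Krt10 between -0.50 and -0.21, Krt80 between -1.46 and -0.52 and Krt9 between -1.61 and -0.46.

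A list of 14 genes held intermediate filament genes outside the keratins and Syne1, which encodes a nuclear envelope linker and no filament. Vim, the mesenchymal filament, had the most counts of the 14, with 48219 ± 25263 normalized counts in Control and 64976 ± 26658 in Notch3IC (SD, n = 4). The log2 fold change of Vim was 0.43 (adjusted p = 0.613 in edgeR's quasi-likelihood test), and with the block 0.48 (adjusted p = 0.0327 in edgeR's test), under the fold limit. With condition alone it was 0.86 when Control of Set 1 was omitted and 0.11 when Notch3IC of Set 1 was. Of the 8 genes tested in the list, Syne1 (0.49) included, the median log2 fold change was 0.31. Among them 1 was called, Nes, a filament of progenitor cells (log2 fold change 3.17, adjusted p = 0.0625 in edgeR's test). Its call was lost without either library of Set 3 or Set 4, the Control library of Set 2 or the Notch3IC library of Set 1 (adjusted p up to 0.198). Among 13 plakins, plakophilins and other proteins that attach keratins to desmosomes or hemidesmosomes, 10 were tested, 1 was called higher and 1 lower. Ppl (periplakin) had 1738, 1928, 2670 and 3683 normalized counts in Control and 769.5, 1704, 1004 and 1028 in Notch3IC, with no overlap, and a log2 fold change of -1.16 (adjusted p = 0.0814 in edgeR's test). The call of Ppl was lost without either library of Set 3 or Set 4 or the Notch3IC library of Set 1 (adjusted p up to 0.235), and with scaling by library totals (adjusted p = 0.105 in edgeR's test). Pkp1 (plakophilin 1) rose by 5.37 on the log2 scale (adjusted p = 0.0270 in edgeR's test), and its call was lost without the Control library of Set 3 (0.105) or Set 4 (0.113). With the block Evpl (envoplakin) was also called, at -2.55 (adjusted p = 0.0284 in edgeR's test). Plec (plectin), with the highest mean of the list over the 8 libraries, was at -0.51 (adjusted p = 0.557 in edgeR's test), and omission of 1 library moved it between -0.81 and -0.14. The list's median was -0.19.

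Epithelial surface and junction genes that usually accompany Epcam were mostly under the filter. Of 22 listed genes 8 were tested, 0 were called in the fit with condition alone and 3 were called lower with the block (F11r, Cd24a and Lsr). The median of the 8 was -0.72, and 4 were lower in all 4 sets, a pattern of 19.4% of all genes tested. F11r, the junctional adhesion molecule A, with the highest mean of the list over the 8 libraries, had a log2 fold change of -0.93 (adjusted p = 0.253 in edgeR's test) and with the block -1.01 (adjusted p = 0.0275). Cdh1 (E-cadherin) had 117, 598, 360 and 638 normalized counts in Control and 61.5, 517, 390 and 265 in Notch3IC, a log2 fold change of -0.48 (adjusted p = 0.764 in edgeR's test; -0.84 to -0.14 when 1 library was omitted). Cldn3, Cldn4 and Cldn7 did not pass the filter. Among 17 epithelial transcription factors beside Grhl2 and Ovol1, 7 were tested (median log2 fold change -0.71) and 1 was called, Tfap2a, which had 2.38 to 5.95 normalized counts in Control and 11.04 to 16.9 in Notch3IC (log2 fold change 1.997, adjusted p = 0.0382 in edgeR's test). Its call was lost without either Control library of Sets 3 and 4 or the Notch3IC library of Set 4 (adjusted p up to 0.139). With the block Elf3, Klf4 and Klf5 were also called, all lower. Klf4, with the highest mean of this list over the 8 libraries (in Notch3IC alone that of Foxa2 was higher), was at -1.23 (adjusted p = 0.172 in edgeR's quasi-likelihood test) and with the block -1.47 (adjusted p = 0.0696 in edgeR's test). The Grhl2 relative Grhl1 had a log2 fold change of -0.71, and the Ovol1 relative Ovol2 did not pass the filter. Grhl3, the third of that family and also under the filter, had 2, 2, 1 and 3 counts in Control and 5, 3, 39 and 13 in Notch3IC, higher in Notch3IC in all 4 sets.

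Splicing regulators other than Esrp1 and Esrp2 were taken from a list of general and tissue-specific factors. Of 20 listed genes 15 were tested, with a median log2 fold change of -0.04, and 0 were called higher and 1 lower. That gene was Rbm47, an RNA-binding protein that promotes epithelial splice forms, at 412, 438, 922 and 864 normalized counts in Control and 138, 290, 215 and 222 in Notch3IC. Rbm47 fell by 1.61 on the log2 scale (adjusted p = 0.0422 in edgeR's quasi-likelihood test), with no overlap between the groups, a pattern of 3.75% of the genes tested, and the call was lost without either library of Set 3 or Set 4 (adjusted p up to 0.139). Rbfox2, a regulator of mesenchymal splice forms, had 4037 to 4977 normalized counts in Control and 5407 to 7489 in Notch3IC, above every Control library as in 7.08% of the genes tested, with a log2 fold change of 0.52 (adjusted p = 0.0592 in edgeR's test) that is under the fold limit. Srsf1, with the most counts of the list, was at -0.06 (adjusted p = 0.847 in edgeR's test).

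Known repressors of epithelial genes include the Zeb and Snail members that bind the letters searched above. Of 10 listed genes 9 were tested, 4 were called higher, 0 lower and 5 not called, all 9 had log2 fold changes above 0 (median 0.66) and 8 were higher in all 4 sets, a pattern of 20.97% of all genes tested. Snai2 (Slug) rose by 2.30 on the log2 scale (adjusted p = 0.0169 in edgeR's quasi-likelihood test). Its Control libraries spanned 358 to 586 normalized counts and its Notch3IC libraries 1092 to 2864, and it was called in each of the 8 omissions of a single library. Prrx1 rose by 1.95 (adjusted p = 0.0604), Tcf4 by 1.49 (adjusted p = 0.0217) and Zeb2 by 1.26 (adjusted p = 0.0486) in edgeR's test. The calls of Prrx1 and Zeb2 were lost without either library of Set 3 or Set 4 (adjusted p up to 0.192 and 0.163 in edgeR's test) and that of Tcf4 without the Control library of Set 3 (adjusted p = 0.102). Zeb1 was at 0.66 (adjusted p = 0.102 in edgeR's test). Set 2 had the log2 ratio nearest to 0 of the 4 sets for all 4 called genes (Snai2 0.90, Prrx1 0.61, Tcf4 0.44 and Zeb2 0.22), as it had for Krt19 and Esrp2. For Krt8 and Krt18 the ratio nearest to 0 was that of Set 3 (-0.30 and 0.08), and for Snai1, which was not called, that of Set 1 (0.14).

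**Figure D3:**
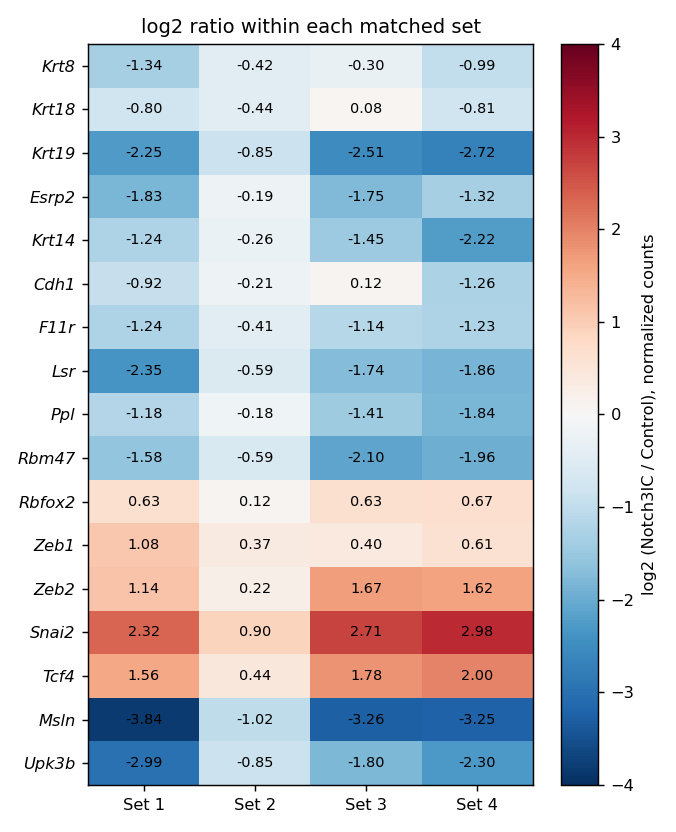
Log2 ratio of Notch3IC over Control normalized counts within each matched set for 4 members and 13 genes of the other lists, with blue for lower and red for higher in Notch3IC and the value written in each cell. Krt19 ranges from -2.72 to -0.85 and Esrp2 from -1.83 to -0.19, and Set 2 has the ratio nearest to 0 for both.

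**Figure D4:**
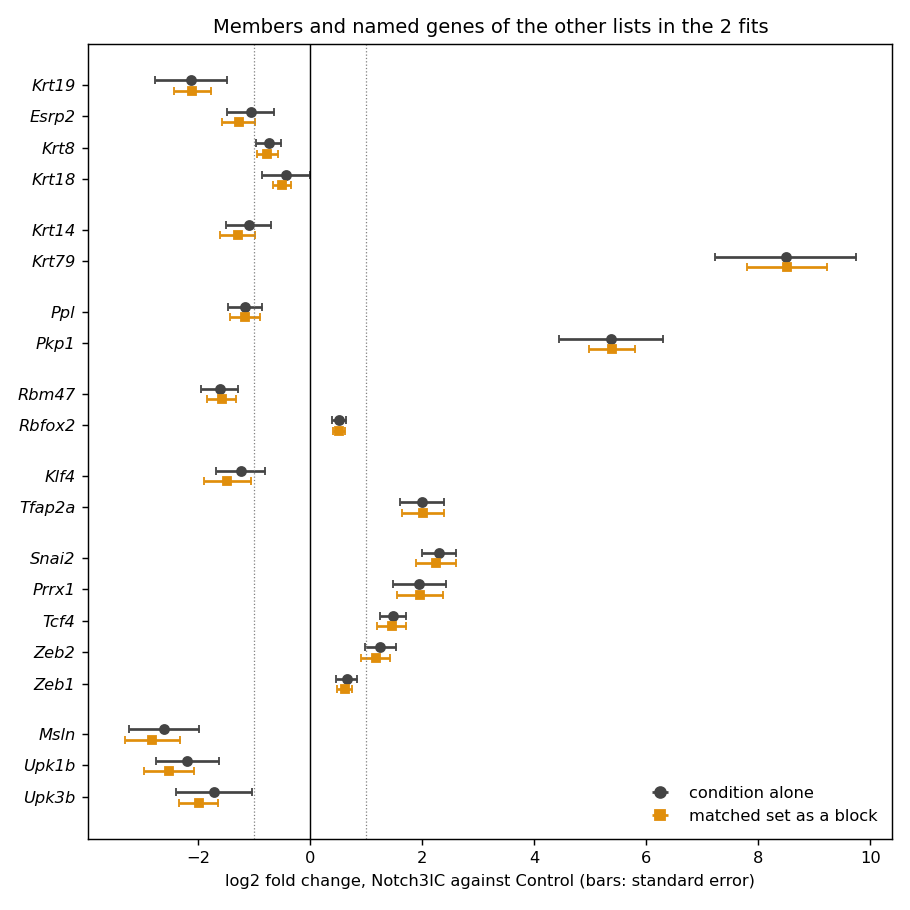
Log2 fold change of Notch3IC against Control with its standard error in edgeR's fit with condition alone (circles) and with a block for the set (squares), grouped by list; dotted lines mark the fold limit of 1. Krt19 is at -2.12 and -2.10 and Esrp2 at -1.06 and -1.27 in the 2 fits, with shorter error bars under the block.

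Markers of the tissue and of other cell types were set beside the keratins. The labelled ovarian surface origin had its markers, with Upk3b, Wt1, Msln and Upk1b among 13 of 14 listed genes found and tested. Their sum was lower in the Notch3IC library of every set, as Krt19 was, at 33108, 59736, 81489 and 73617 normalized counts in Control and 17382, 40657, 33766 and 27924 in Notch3IC. Msln (mesothelin) fell by 2.60 on the log2 scale (adjusted p = 0.0625 in edgeR's quasi-likelihood test) and Upk1b by 2.19 (adjusted p = 0.0762 in edgeR's test), both without overlap between groups, and these were the 2 of 13 called (median of the 13 -1.22). Of the other 11, 4 had log2 fold changes above 0 (Lhx9 0.36, Aldh1a2 0.27, Nr5a1 0.22 and Cdh2 0.08; those of Aldh1a2 and Cdh2 fell below 0 without the Notch3IC library of Set 3 and Set 1, respectively), and Lhx9 and Nr5a1 were higher in the Notch3IC library of all 4 sets. The calls of Msln and Upk1b were lost without either library of Set 3 or Set 4, and that of Upk1b also without the Control library of Set 2 (adjusted p up to 0.195 and 0.232), and the block called 7 of 13 lower. Upk3b, with the highest mean of them over the 8 libraries (in Notch3IC alone the mean of Wt1 was higher), was at -1.72 (adjusted p = 0.220) and with the block -1.98 (adjusted p = 0.0319) in edgeR's test. Fibroblast and smooth muscle markers were higher in sum in the Notch3IC library of every set, at 205459, 131460, 96443 and 70914 normalized counts in Control and 414542, 169747, 218478 and 257675 in Notch3IC, led by Col1a1. Of these 12 genes 8 were tested (median log2 fold change 1.08), and 2, Pdgfrb and Cspg4, were called higher (log2 fold changes of 5.99 and 4.20, adjusted p = 0.0169 for both in edgeR's test), and 7 were with the block, Col1a1 among them. The part of either list in the keratin values was not tested.

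Leukocyte and endothelial markers were low, though not all near 0. The 8 leukocyte markers summed to 56.5, 91.9, 89.97 and 128 normalized counts in Control and 82.8, 82.1, 87.4 and 121 in Notch3IC, and Cd3e and Emr1 had 0 counts in every library. Cd68 had the most on average (80.8 in Control and 61.1 in Notch3IC), but in the Notch3IC library of Set 1 it had 34.7 and Csf1r 40.3 normalized counts. Ptprc had 2 counts in 1 library and 0 in the other 7. The list's only call was Csf1r, which had 9, 10, 7 and 9 counts in Control and 36, 10, 22 and 28 in Notch3IC (log2 fold change 1.52, adjusted p = 0.0719 in edgeR's test, and up to 0.228 without a single library of Set 1, 3 or 4). The 7 endothelial markers summed to 12.7 to 37.0 normalized counts in Control and 27.8 to 51.4 in Notch3IC, with Pecam1 the highest on average (14.07 in Control and 21.02 in Notch3IC) and Kdr next (9.40 and 13.2), Cldn5 at 0 in all libraries and 0 of 2 tested genes called.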

How the data were processed

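The authors sequenced polyadenylated RNA of the 8 lines as single-end reads from Illumina TruSeq libraries. They deposited 1 table per library of read counts per gene symbol, whole numbers without normalization. The submitters' processing notes name TopHat, Cufflinks, DESeq and the build mm9. Versions, annotation and strandedness are not given in the sources used here.

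Counts were tested with edgeR 4.0.16 in R 4.3.3 (TMM, filterByExpr by condition, robust quasi-likelihood F test, Benjamini-Hochberg adjustment over all 12430 genes tested). Standard errors are the log2 fold change over the square root of F. Counts were normalized to the mean of the TMM-scaled library sizes, and ratios within a set add a pseudocount of 0.5. The main fit has condition alone, since the study names no set term. The study describes each set as matched lines, and deviations from the group means correlated at 0.80, 0.40, 0.57 and 0.41 within Sets 1 to 4, against -0.50 to 0.37 for crossed pairs. Block values stand where they change a call. The biological coefficient of variation was 26.3% with condition alone and 14.1% with the block. No 2 libraries of 1 group agreed within sampling noise. P-values measure the spread between infected lines of 1 cell line. The limit of 3 counts set for a 0 covers counting error only.

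Alternatives tried were the block, DESeq2 1.42.0, library totals or RLE or upper-quartile scaling in place of TMM, no filter, a minimum of 10 counts in every library, an adjusted p under 0.05, no fold limit, and omission of each library and set. The block with a set left out and with other thresholds, and the bound of Krt1 without its highest library, were chosen after seeing the data. The fit with condition alone was tested on simulated counts. These were drawn without a set effect, so that test does not cover the set structure of the data.

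The members and the lists were chosen with earlier results of these data known. Named genes are the members, the called genes of each list, the most abundant gene of each list, keratins with at least 50 counts in a library (at most 6) and the 3 genes most like each expressed member. Rbfox2, Evpl, Wt1, Zeb1, Cdh1, Cd24a, Lsr, Elf3, Klf5, Grhl1, Grhl3, Foxa2, Snai1, Lhx9, Aldh1a2, Nr5a1, Cdh2, Kdr, the genes given for being under the filter and the named leukocyte and endothelial markers at 0 fell outside that rule or were singled out after their values were seen. Ptbp3 and Adgre1 are listed as Rod1 and Emr1, and Ovol3 and Muc16 were not matched.

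Gene positions, exon lengths and overlaps are from GENCODE M21 (GRCm38), not from the build of the counts, and near-identical copies from blastn 2.17.0 against its transcripts (at least 100 bases). Promoters are from RefSeq (GRCm38.p6). Figures were drawn with Matplotlib 3.10.9 in Python 3.11.15.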

Additional observations from a re-analysis of the deposited data

Results flagged for a closer look

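A search for single libraries far from the rest covered 42 genes. It took the members, the called and most abundant genes of each list and the keratins with at least 50 counts. Notch3 and its targets Hey1, Heyl and Nrarp were included, and the genes most like each member were not. The 42 genes give 84 groups of 4 libraries (each gene in Control and in Notch3IC). Of these, 8 groups with at most 3 counts in every library were left out. Of the 76 groups examined, 7 had 1 library far from the other 3, where chance alone gives about 3.8. Krt7 had 44.0 normalized counts in the Control library of Set 3, against 2.39 to 5.55 in the other Control libraries. Esrp2 had 941 in the Notch3IC library of Set 2, against 234 to 338 in the others. In the same library Tcf4 had 1143, against 2156 to 2316. Vim had 104888 in the Notch3IC library of Set 1, against 49547 to 53508. In the Control library of Set 1 Pkp1 had 30.7, against 4.79 to 8.36, and Tfap2a had 5.95, against 2.38 to 2.87. Notch3 had 70.8 in the Control library of Set 3, against 38.7 to 42.0.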

How the results depend on the processing

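The count of members called lower was 0 with condition alone. It was 3 with DESeq2, 2 with the replicate block, 2 with the block at an adjusted p under 0.05 (where 1.9% of all genes were called lower) and 4 with the block and no fold limit (12.1%). It ranged from 0 to 2 when a library or set was left out, and from 0 to 2 in the block without 1 set. Without Set 2 the block gave -2.51 for Krt19 and -1.63 for Esrp2. Members called higher stayed at 0 in all settings. Over all genes, calls higher (423) became 707 with DESeq2 and 645 with the block, and ranged from 0 to 702 under omissions. Calls lower (92) became 192 with DESeq2, 315 with the block, 48 at an adjusted p under 0.05 and 210 with no fold limit, and ranged from 0 to 305 under omissions. Krt19 and Esrp2 passed the threshold with DESeq2 (log2 fold changes of -2.14 and -1.07) and with the block (-2.10 and -1.27). Under omissions of a library or set, with or without the block, the log2 fold change of Krt19 stayed between -2.58 and -1.75 and that of Esrp2 between -1.71 and -0.84. The sign of all 4 tested members held in every setting. Every call named in the text from edgeR's fit with condition alone was lost without the whole of Set 3 or Set 4 (Snai2 at an adjusted p of up to 0.221). Over all genes, that fit then called 1 higher without Set 3, 0 higher without Set 4 and 0 lower without either. With Notch3IC of Set 2 omitted, edgeR's fit with condition alone also called Krt14, Klf4, F11r, Cd24a, Lsr, Evpl and Elf3 lower and Col1a1 higher. DESeq2 also called Krt14, Klf4, Upk3b, Lsr and Evpl lower. Scaling by library totals ended the call of Ppl (-1.19, adjusted p = 0.105 in edgeR's test). Among the tested members, genes of the lists and keratins named in the text, the block changed no call other than those given with it. Block values of the genes most like each member were not compared. Among the genes whose log2 fold change was recomputed, 3 changed sign under omissions, Srsf1 (-0.13 to 0.0015, above 0 without the Control library of Set 1), Cdh2 (-0.086 to 0.24, below 0 when Notch3IC of Set 1 was omitted) and Aldh1a2 (-0.16 to 0.56, at -0.16 when Notch3IC of Set 3 was omitted and -0.070 when all of that set was). The cause of these differences was not tested. Depth limits Krt7, Epcam, Esrp1, Grhl2 and Ovol1, whose counts reached 46, 12, 1, 3 and 9 at most.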
